A study of Mus musculus with 34 samples.

Results

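In 3T3-L1 cells, 10 genes whose RNA stood higher, or shifted more positively, in cells given hairpins against KDM5 histone demethylases were followed through 4 assays: Angpt2, Apod, Cntfr, P2rx3, Slc22a18, Plekha6, Lsp1, Ubd, Adh1 and Mamstr. They were chosen by their values in the RNA table, for a higher level or a more positive shift in the knockdown columns than in the control columns at one or more times, and each is 1 of the 17515 transcripts of that table. The RNA differences between knockdown and control below are therefore the values that chose the genes, are given as a description, and were not used as evidence of an effect. The histone mark and the 2 KDM5 proteins were not part of that choice. The change over time averaged over both virus groups is another contrast, but it includes the knockdown libraries whose values chose the genes. P2rx3 was chosen for a shift between times. The gene name column of the peak tables assigned 6 of 10702 H3K4me3 peaks to 4 of the genes, 49 of 87525 KDM5A peaks to 9 of them and 8 of 14827 KDM5C peaks to 5 of them.

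3T3-L1 is a mouse preadipocyte line that turns into fat cells when confluent cultures receive dexamethasone, insulin, 3-isobutyl-1-methylxanthine and serum. For RNA and for H3K4me3, cells received lentivirus 4 days before induction, either the control hairpin shLuc or shKdm5ABC, hairpins against Kdm5a, Kdm5b and Kdm5c together. Transduction lasted 24 hours, with polybrene at 6 ug per mL. The promoter that drives the hairpins is not given in the sources used here. They were then collected at day 0 (2 days after confluence, before induction), 4 hours and day 2 after induction, with 2 experiments for each of the 6 groups. KDM5A was mapped at the same 3 times in 2 experiments and KDM5C at day 2 in 2 experiments, in cells for which the labels name no virus, with 1 input library. A second input, labelled Input virus, was not analysed here. Nothing says that the 2 experiments were grown as separate cultures, so p-values measure the spread between these samples, which may be technical. All of the data come from whole cultures, in which fewer cells of a type and less RNA per cell cannot be told apart.

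KDM5A, KDM5B and KDM5C remove methyl groups from lysine 4 of histone H3, and the trimethylated form, H3K4me3, marks the starts of active genes. KDM5 proteins are mostly found at such starts, and KDM5A carries an ARID domain that binds the letters CCGCCC in DNA. The 10 genes have diverse products. Angpt2 is a secreted ligand of the TIE2 receptor of blood vessels and Apod a secreted lipid-binding lipocalin. Cntfr is the ligand-binding subunit of the receptor for ciliary neurotrophic factor and P2rx3 an ATP-gated ion channel best known from sensory neurons. Slc22a18 is a membrane transporter from an imprinted cluster. Plekha6 is a pleckstrin homology domain protein, Lsp1 binds filamentous actin in leukocytes, and Ubd (FAT10) is a ubiquitin-like modifier that sends proteins to the proteasome. Adh1 oxidises alcohols, retinol among them, and Mamstr is a nuclear coactivator of the MEF2 transcription factors of muscle.

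RefSeq promoters of build GRCm38.p6 were at hand for 7 of the 10 genes (12 start sites, 6 of them of Cntfr). Each window is the 250 bases before the start, and 5 are printed: those of the genes with CCGCCC, and 3 poor in CpG pairs for contrast. Capitals mark CCGCCC or its reverse complement GGGCGG, except in Ubd, where they mark CCAAT or its reverse complement ATTGG.
Mamstr, chr7:45639727-45639976, plus strand: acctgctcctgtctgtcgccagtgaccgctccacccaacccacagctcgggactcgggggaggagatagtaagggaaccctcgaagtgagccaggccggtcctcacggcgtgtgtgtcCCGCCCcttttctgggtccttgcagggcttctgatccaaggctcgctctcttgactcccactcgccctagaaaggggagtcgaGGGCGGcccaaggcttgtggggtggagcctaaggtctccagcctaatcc
Cntfr, chr4:41695926-41696175, minus strand: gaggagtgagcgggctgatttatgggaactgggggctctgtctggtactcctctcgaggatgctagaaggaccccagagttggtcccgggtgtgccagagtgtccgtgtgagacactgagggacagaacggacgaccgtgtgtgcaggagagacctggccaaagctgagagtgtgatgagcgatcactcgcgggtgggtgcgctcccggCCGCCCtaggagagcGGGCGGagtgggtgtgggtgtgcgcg
Apod, chr16:31314809-31315058, minus strand: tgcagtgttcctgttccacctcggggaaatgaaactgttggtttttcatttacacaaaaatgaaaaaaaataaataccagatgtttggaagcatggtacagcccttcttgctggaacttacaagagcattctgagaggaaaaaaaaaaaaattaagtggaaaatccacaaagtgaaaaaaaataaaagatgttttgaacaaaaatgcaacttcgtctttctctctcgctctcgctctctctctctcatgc
Slc22a18, chr7:143473539-143473788, plus strand: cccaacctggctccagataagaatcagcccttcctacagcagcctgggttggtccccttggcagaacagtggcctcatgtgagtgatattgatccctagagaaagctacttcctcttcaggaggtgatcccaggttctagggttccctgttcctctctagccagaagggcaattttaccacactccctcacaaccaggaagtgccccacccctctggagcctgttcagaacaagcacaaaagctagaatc
Ubd, chr17:37193642-37193891, plus strand: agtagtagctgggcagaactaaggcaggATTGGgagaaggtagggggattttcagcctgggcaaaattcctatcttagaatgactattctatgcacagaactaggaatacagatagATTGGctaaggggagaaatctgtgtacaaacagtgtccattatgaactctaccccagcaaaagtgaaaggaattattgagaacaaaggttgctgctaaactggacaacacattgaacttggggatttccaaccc
CCGCCC was present in the Mamstr window, 132 and 49 bases before the start counted to the first base of the match, and in the Cntfr window printed above, 41 and 26 bases before it, where another, overlapping Cntfr window holds the same pair. Among the 12 windows it was found only at these 2 genes, in 1 Mamstr window and 3 of the 6 of Cntfr, and 32.7% of 32851 mouse promoter windows of that length hold it on either strand. The Mamstr window had 13 CpG pairs and a G and C content of 63.2%, and the 6 Cntfr windows 3 to 37 CpG pairs. Slc22a18 and Ubd had 0 CpG pairs in their windows, Plekha6 3, Apod 4 and Adh1 5, against a median of 6.00 over all windows. CCAAT was found in the Ubd window, 222 and 134 bases before the start (33.8% of all windows), and CACGTG, TGACGTCA and TATAAA in none of the 12 (6.02%, 1.55% and 12.4% of all windows). No match says only that these letters were not in the window.

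The RNA libraries were first checked for the hairpin targets. Kdm5a averaged 7.96 ± 0.10 log2 tags per kilobase (SD, n = 2) in shLuc and 6.98 ± 0.11 in shKdm5ABC at day 0, Kdm5b 8.46 ± 0.02 and 7.74 ± 0.03, and Kdm5c 8.31 ± 0.13 and 6.91 ± 0.19. All 3 were called lower in the knockdown at each of the 3 times (limma, adjusted p of 0.0216 for Kdm5a at 4 hours and 0.00629 for Kdm5c at day 0), with differences from -0.65 ± 0.10 (Kdm5b, day 2) to -1.40 ± 0.18 (Kdm5c, day 0).

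Most of the 10 genes had low RNA levels. On the deposited per-length log2 scale Apod lay at the 97.7th percentile of the 13534 transcripts that passed a floor on low values. Lsp1 lay at the 64.8th, and the others between the 12.2th (Mamstr) and the 32.2th (Cntfr). All 10 passed the floor. In shLuc at day 0 the order from high to low was Apod, Lsp1, P2rx3, Plekha6, Ubd, Adh1, Angpt2, Cntfr, Slc22a18, Mamstr. In shKdm5ABC at day 0 P2rx3 stood next to last and Ubd behind Apod and Lsp1. Neighbours in these orders often lay within the spread of 2 libraries, such as Ubd at 4.57 ± 0.23 and Adh1 at 4.28 ± 0.27 in shLuc at day 0, or Angpt2 at 4.07 ± 0.32 and Cntfr at 3.85 ± 0.04.

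**Figure D1:**
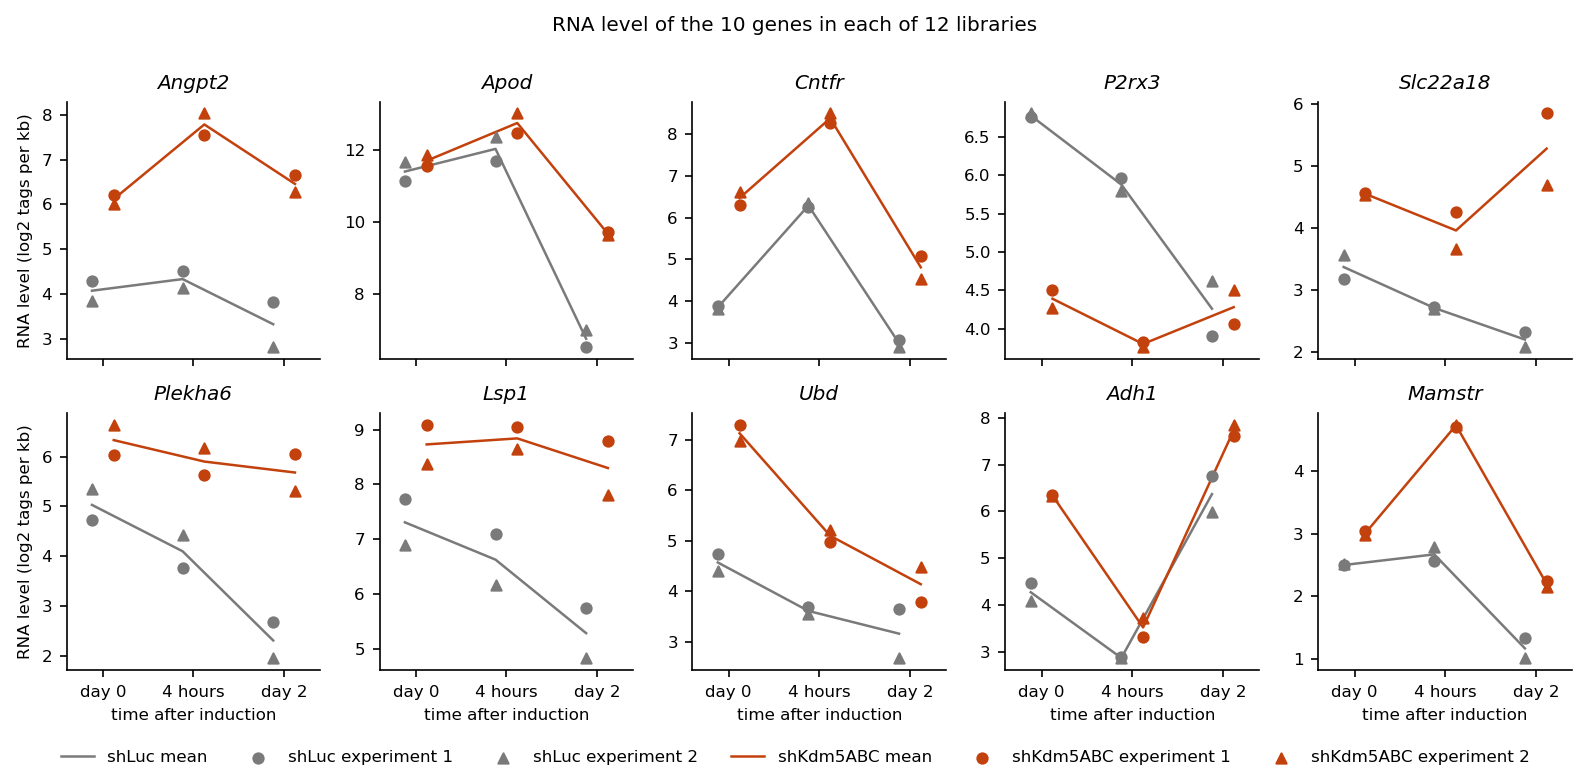
RNA level (vertical axis, log2 tags per kilobase, a separate scale for each gene) of the 10 genes at day 0, 4 hours and day 2 (horizontal axis). Circles and triangles are experiments 1 and 2 and lines join the means of 2 libraries, grey for shLuc and orange for shKdm5ABC; the orange points lie above the grey ones in most panels, and below them for P2rx3 at day 0 and 4 hours.

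Among the secreted proteins, Angpt2 had levels of 4.29 and 3.85 in the 2 shLuc libraries at day 0, 4.52 and 4.14 at 4 hours and 3.82 and 2.81 at day 2. In shKdm5ABC it had 6.22 and 6.01, then 7.55 and 8.04, then 6.65 and 6.27. Every knockdown library was above every control library, also across times, and the differences were 2.04 ± 0.33 (SE) at day 0, 3.46 ± 0.33 at 4 hours and 3.14 ± 0.33 at day 2. The 4-hour difference, 11.0-fold, ranked first among all transcripts tested at that time.

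Apod differed mainly at day 2. Its shLuc levels were 11.14 and 11.66 at day 0, 11.70 and 12.37 at 4 hours and 6.52 and 6.99 at day 2, and its shKdm5ABC levels 11.55 and 11.86, 12.47 and 13.02, and 9.71 and 9.63. The groups overlapped at day 0, where the difference was 0.30 ± 0.27, and were apart by 2.92 ± 0.27 (7.55-fold) at day 2. The level at day 2 was below that of day 0 in both virus groups.

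The 2 membrane proteins with a signalling role differed in opposite directions at day 0. Cntfr had 3.88 and 3.82 in shLuc at day 0, 6.25 and 6.34 at 4 hours and 3.07 and 2.90 at day 2, and 6.31 and 6.62, 8.26 and 8.50, and 5.08 and 4.53 in shKdm5ABC. It followed the same course in both virus groups, high at 4 hours and low at day 2, and was higher in the knockdown by 2.62 ± 0.21, 2.09 ± 0.21 and 1.82 ± 0.21 in turn. Its day 0 difference of 6.13-fold ranked first at that time.

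P2rx3 is in the set by its shift alone. Its shLuc levels were 6.76 and 6.81 at day 0, 5.96 and 5.80 at 4 hours and 3.90 and 4.62 at day 2, whereas its shKdm5ABC levels were 4.51 and 4.27, 3.83 and 3.76, and 4.06 and 4.50. It was lower in the knockdown at day 0 by a difference of -2.39 ± 0.25 and at 4 hours by -2.08 ± 0.25, and the groups overlapped at day 2, at 0.03 ± 0.25. The difference between knockdown and control moved by 2.42 ± 0.35 from day 0 to day 2. Over that time the shLuc libraries came down to the level of the knockdown libraries, which lay between 3.76 and 4.51 throughout, and at no time was the knockdown group clear of and above the control group.

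Slc22a18 had 3.17 and 3.56 in shLuc at day 0, 2.72 and 2.70 at 4 hours and 2.32 and 2.08 at day 2. In shKdm5ABC it had 4.57 and 4.53, 4.26 and 3.66, and 5.85 and 4.70, again above every control library. The 2 knockdown libraries at day 2 were the farthest apart of its groups (SD 0.81), and the difference was 1.18 ± 0.35 at day 0, 1.25 ± 0.35 at 4 hours and 3.08 ± 0.35 at day 2 (8.44-fold).

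Plekha6 and Lsp1 had a like course, lower at each later time in shLuc and more level in the knockdown. Plekha6 had 4.72 and 5.35, 3.76 and 4.43, and 2.68 and 1.95 in shLuc, against 6.03 and 6.64, 5.64 and 6.17, and 6.06 and 5.31 in shKdm5ABC, and its day 2 difference was 3.37 ± 0.39 (10.3-fold). Lsp1 had 7.73 and 6.90, 7.09 and 6.17, and 5.75 and 4.83 in shLuc, against 9.09 and 8.37, 9.05 and 8.64, and 8.79 and 7.81 in shKdm5ABC. Its differences were 1.41 ± 0.46, 2.21 ± 0.46 and 3.01 ± 0.46 from day 0 to day 2. Experiment 1 exceeded experiment 2 in all 6 Lsp1 groups.

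Ubd fell over time in both groups and was apart most at day 0. It had 4.73 and 4.41, 3.68 and 3.55, and 3.65 and 2.67 in shLuc, against 7.30 and 6.97, 4.98 and 5.22, and 3.79 and 4.48 in shKdm5ABC, and its differences were 2.56 ± 0.33, 1.48 ± 0.33 and 0.98 ± 0.33. At day 2 the lower knockdown library exceeded the higher control library by little, 3.79 against 3.65.

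Adh1 had 4.47 and 4.09, 2.89 and 2.87, and 6.75 and 5.98 in shLuc, against 6.35 and 6.33, 3.33 and 3.73, and 7.60 and 7.85 in shKdm5ABC. It was low at 4 hours and high at day 2 in both groups, and its difference was 2.06 ± 0.26 at day 0, 0.65 ± 0.26 at 4 hours and 1.36 ± 0.26 at day 2. Mamstr had 2.50 and 2.51, 2.56 and 2.79, and 1.33 and 1.01 in shLuc, against 3.04 and 2.98, 4.71 and 4.74, and 2.25 and 2.15 in shKdm5ABC. Its difference of 0.51 ± 0.20 at day 0 grew to 2.06 ± 0.20 (4.16-fold) at 4 hours, where libraries of both groups lay above those of day 0, by more in the knockdown, and was 1.03 ± 0.20 at day 2.

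**Figure D2:**
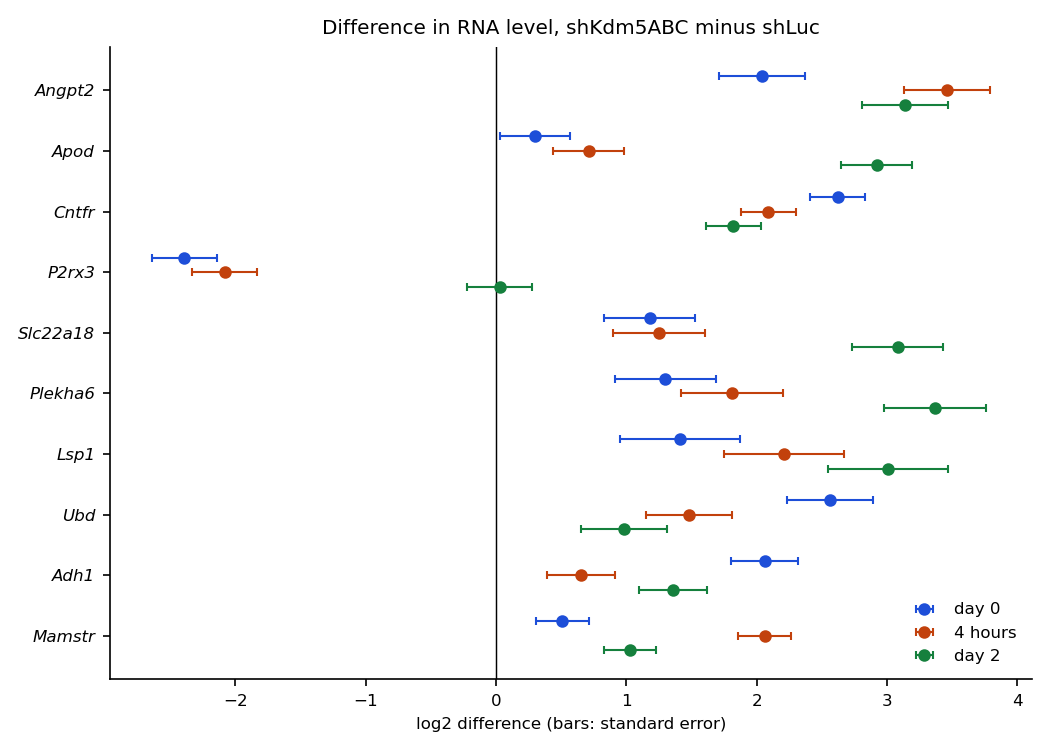
Difference in RNA level between shKdm5ABC and shLuc (horizontal axis, log2) for each gene (rows) at day 0 (blue), 4 hours (orange) and day 2 (green), with standard errors from the fit over all transcripts. Cntfr, Ubd and Adh1 had their highest value at day 0, Angpt2 and Mamstr at 4 hours, and P2rx3 lies below 0 at the first 2 times.

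The highest of the 3 differences fell at day 0 for 3 genes, at 4 hours for 2 and at day 2 for 5, counting P2rx3 with its value of 0.03. Both knockdown libraries lay above both control libraries for 8 genes at day 0, 9 at 4 hours and 9 at day 2, where 22.0%, 19.4% and 26.2% of all transcripts tested did so. In the limma fit over all transcripts (Benjamini-Hochberg adjusted p under 0.05), 4 genes were called higher and 1 lower at day 0, 4 and 1 at 4 hours, and 8 and 0 at day 2. The background was 0.606% higher and 0.901% lower at day 0, 0.798% and 0.643% at 4 hours, and 5.66% and 3.34% at day 2, and since this contrast chose the genes nothing is read from these counts. The change of the difference from day 0 to day 2 was called for 2 genes, Apod and P2rx3, with a background of 0.310%. With 1 library left out, limma called 0 of the 10 genes in 7 of 8 fits (1119 to 1515 of all transcripts had an unadjusted p under 0.05) and 3 without shKdm5ABC day 2 experiment 2, and with only the compared groups fitted it called 1. With the experiment number as a block the counts were 6 and 1 (background 4.38% and 5.05%), 8 and 1 (4.58% and 5.10%), and 9 and 0 (13.9% and 14.2%), and 5 genes for the change (4.76%). Fitted on the 4 libraries of one time alone, 3, 0 and 1 genes were called (0.0813%, 0% and 0.185% of all transcripts, of which 1342 had an unadjusted p under 0.05 at 4 hours). The median difference of the 10 genes was 1.36, 1.65 and 2.37, against 0.008, 0.005 and -0.003 over all transcripts.

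The course over time, averaged over both virus groups, is another contrast than the knockdown differences, and it was tested. Which genes besides P2rx3 were chosen for a shift between times is not given. Apod, whose difference shifted by 2.61 ± 0.39 from day 0 to day 2, may be one. The average includes the knockdown libraries whose values chose the genes, so a knockdown difference that changed with time enters it. The p-values below are therefore not free of that choice. The values of P2rx3, chosen for a shift between times, are a description. At 4 hours Cntfr rose by 2.18 ± 0.15 (SE) on the log2 scale (4.52-fold, limma adjusted p = 1.27e-06, 4 of 4 libraries above those of day 0 within their virus group). Angpt2 rose by 0.97 ± 0.23 (adjusted p = 0.00484), Mamstr by 0.94 ± 0.14 (adjusted p = 2.85e-04) and Apod by 0.84 ± 0.19 (adjusted p = 0.00382). Adh1 fell by 2.10 ± 0.18 (4.30-fold lower, adjusted p = 6.92e-06), Ubd fell by 1.49 ± 0.23 (adjusted p = 3.36e-04) and P2rx3 had -0.75 ± 0.18. The other 3 genes did not pass: Slc22a18 had -0.63 ± 0.25 (adjusted p = 0.0512), Plekha6 -0.68 ± 0.27 (adjusted p = 0.0539) and Lsp1 -0.28 ± 0.32 (adjusted p = 0.478). With the experiment as a block all 3 passed, at adjusted p = 0.0241, 0.0351 and 0.0161, which gives 4 genes up and 6 down (34.2% and 36.4% of all transcripts). Plekha6 also passed without shLuc experiment 1 or knockdown experiment 1 of day 0 (adjusted p = 0.0407 and 0.0429), or without experiment 2 of either 4-hour group (0.0377 and 0.0497), and Slc22a18 without knockdown experiment 1 of 4 hours (0.0343).

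By day 2 most of the genes stood below their day 0 level. Apod fell by 3.34 ± 0.19 (10.1-fold lower than at day 0, adjusted p = 3.02e-07), Ubd fell by 2.20 ± 0.23 (adjusted p = 1.67e-05) and Plekha6 fell by 1.68 ± 0.27 (adjusted p = 3.48e-04). P2rx3 had -1.32 ± 0.18. Cntfr fell by 1.26 ± 0.15 (adjusted p = 3.23e-05), Lsp1 fell by 1.22 ± 0.32 (adjusted p = 0.00718) and Mamstr fell by 1.07 ± 0.14 (adjusted p = 8.90e-05). Adh1 alone of the 10 rose, by 1.74 ± 0.18 (3.34-fold, adjusted p = 1.60e-05), while Slc22a18 (-0.22 ± 0.25, adjusted p = 0.464) and Angpt2 (-0.20 ± 0.23, adjusted p = 0.472) did not pass. With P2rx3 counted, 4 genes were called up and 3 down at 4 hours, and 1 up and 7 down at day 2. Over all transcripts 27.9% rose and 30.8% fell at 4 hours, and 31.0% and 31.7% at day 2. Averages over both groups hide where these differ. P2rx3 differed over time mainly between shLuc libraries, and Mamstr at 4 hours stood above day 0 mainly in the knockdown. Angpt2 went from 4.07 ± 0.32 (SD) at day 0 to 4.33 ± 0.27 at 4 hours in shLuc, and from 6.12 ± 0.15 to 7.79 ± 0.34 in shKdm5ABC. At day 2 the averages of Angpt2 and Slc22a18 joined moves in opposite directions. Angpt2 then had means of 3.32 in shLuc and 6.46 in shKdm5ABC. Slc22a18 went from 3.37 at day 0 to 2.20 in shLuc, and from 4.55 to 5.28 in shKdm5ABC. The falls of Plekha6 and Lsp1 by day 2 lay mainly in shLuc, from 5.03 to 2.31 and from 7.31 to 5.29. In shKdm5ABC they went from 6.33 to 5.68 and from 8.73 to 8.30, and libraries of both times overlapped. Apod went from 11.40 to 6.75 in shLuc and from 11.70 to 9.67 in shKdm5ABC.

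**Figure D3:**
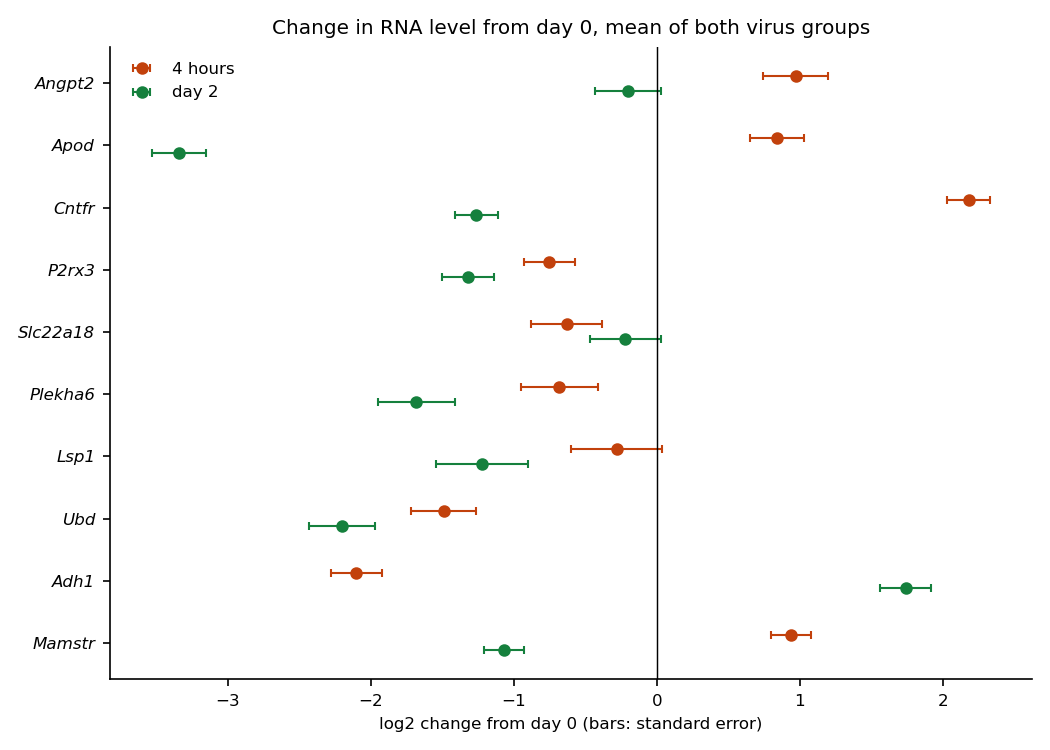
Change in RNA level from day 0 to 4 hours (orange) and to day 2 (green), log2, averaged over shLuc and shKdm5ABC, with standard errors, for each gene (rows). At day 2 Apod lies farthest to the left, at -3.34, and Adh1 is the one gene clearly to the right of 0.

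Related genes from the pathways of the 10 were counted in the same fit. The shares of all transcripts called higher and lower were 0.606% and 0.901% at day 0, 0.798% and 0.643% at 4 hours, and 5.66% and 3.34% at day 2. In lists as short as these, nothing is read from single calls. Of the 7 other angiopoietin and TIE genes tested, none was called at day 0 or 4 hours and 1 was lower at day 2: Angpt1, the TIE2 agonist, changed by -0.46 ± 0.12 (limma adjusted p = 0.0403) in the opposite direction to Angpt2. Of 10 other lipocalins and lipid-binding secreted proteins, 1, 1 and 2 were higher and 0 lower at the 3 times. Apoc1 was higher by 1.46 ± 0.22 at day 0 (adjusted p = 0.0115) and Apoe, the lipid carrier, by 1.27 ± 0.30 at day 2 (adjusted p = 0.0289).

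Of 14 other genes of the CNTF and LIF receptor pathway, none was called at the first 2 times and 3 were higher at day 2. Among them the feedback inhibitor Socs3 was higher by 1.21 ± 0.16 (adjusted p = 0.00278) and the IL-6 receptor Il6ra by 1.16 ± 0.21 (adjusted p = 0.0110). None of the 4 other P2X receptors or 6 other SLC22 transporters tested was called at any time, and P2rx4 and Slc22a17, the ones with the highest levels, differed by -0.13 ± 0.20 (adjusted p = 0.763) and 0.81 ± 0.35 (adjusted p = 0.181) at day 2. Of 13 other genes of the distal chromosome 7 imprinted cluster, in which Slc22a18 lies, 1 was called, Osbpl5, higher by 0.91 ± 0.20 at day 2 (adjusted p = 0.0242).

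Of 6 other PLEKHA genes 1 was called, Plekha2, higher by 1.03 ± 0.26 at day 2 (adjusted p = 0.0404), and of 14 other cortical actin genes 1, the membrane to actin linker Ezr, higher by 0.72 ± 0.18 at day 2 (adjusted p = 0.0362). Of 22 genes of the FAT10 and immunoproteasome list, 2 were lower at day 0, 2 at 4 hours and 1 higher at day 2; the ubiquitin-like Isg15 differed by -2.56 ± 0.23 at day 0 (adjusted p = 0.00164) and the conjugating enzyme Ube2l6 by -1.65 ± 0.27 at 4 hours (adjusted p = 0.0193). The median of that list was -0.47 at day 0, against 0.008 over all transcripts.

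Of 19 other genes of retinol and alcohol oxidation, none was called at the first 2 times and 3 were higher and 2 lower at day 2. The retinol-oxidising Adh7 was higher by 2.62 ± 0.23 (adjusted p = 0.00112) and the retinal reductase Rdh11 lower, at -1.02 ± 0.15 (adjusted p = 0.00424). Of 9 other MEF2 and myocardin family genes, 1 was called, the MEF2 corepressor Hdac4, higher by 0.83 ± 0.16 at day 2 (adjusted p = 0.0153).

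Several of the 10 genes are known best from cells other than preadipocytes, so markers of those cells were read in the same libraries. Of the leukocyte markers 10 were measured and 4 tested; Ptprc, Adgre1, Itgam, Fcgr1, Coro1a and Laptm5 were under the floor. Their summed level (log2) lay at 6.54 to 6.89 in shLuc and 7.34 to 7.42 in shKdm5ABC at day 0, and 1 marker, Cd68, was called higher at day 0 (1.50 ± 0.24, adjusted p = 0.0144) and 4 hours (1.28 ± 0.24, adjusted p = 0.0334). The same sums were 7.09 to 7.53 and 7.52 to 8.07 at 4 hours and 5.29 to 5.94 and 5.84 to 6.36 at day 2. Of endothelial, neuronal and skeletal muscle markers 4, 1 and 4 were tested and none was called. The skeletal muscle sums lay at 5.46 to 5.59 in shLuc and 5.70 to 5.97 in shKdm5ABC at day 0, at 5.13 to 5.33 and 5.73 to 5.77 at 4 hours and at 5.27 to 5.36 and 5.30 to 5.37 at day 2. They did not overlap at the first 2 times. The neuronal values, of Tubb3 alone, were 1.67 to 2.34 and 1.70 to 1.86, then 3.11 to 3.71 and 3.98 to 4.13, then 1.23 to 1.43 and 1.21 to 1.70, without overlap at 4 hours. Both knockdown libraries lay above both control libraries for 22.0% of all transcripts at day 0 and 19.4% at 4 hours, so nothing is read from this. The endothelial sums overlapped at each time, at 5.19 to 5.66 and 5.39 to 5.96 at 4 hours and 4.74 to 5.22 and 4.82 to 5.24 at day 2. Pecam1, Kdr, Tek, Vwf, Snap25, Rbfox3, Scn10a, Ckm and Myh3 were among those under the floor. Of 9 adipocyte markers 1, Cebpa, was higher at day 0 (1.09 ± 0.22, adjusted p = 0.0466), and the median of that list was 1.07 at day 0, 0.29 at 4 hours and -0.46 at day 2. Of 9 preadipocyte markers 1, Pdgfra, was higher at day 2 (1.19 ± 0.26, adjusted p = 0.0230). At that time the preadipocyte sum was 12.01 to 12.60 in shLuc and 12.73 to 13.22 in shKdm5ABC, and the adipocyte sum 15.07 to 15.41 and 14.18 to 14.92. The part of these shifts in the levels of the 10 genes was not tested.

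For each gene the transcript with the most similar course over the 12 libraries was found by Pearson's r, as a description over libraries that share 6 conditions. It was Prkg2 for Apod (0.988), Crip1 for Cntfr (0.984), Mrgpre for Plekha6 (0.977), 4930486L24Rik for Mamstr (0.972), Slc7a2 for Lsp1 (0.971) and Pcca for Adh1 (0.971). It was Foxo4 for Slc22a18 (0.956), Prcd for Ubd (0.948), Tnxb for Angpt2 (0.947) and Ostn for P2rx3 (0.945).

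Of the 19 genes that flank or overlap the 10, 11 were tested, and none was called at day 0 or 4 hours. At day 2 only Prr33 was, higher by 2.65 ± 0.67 (adjusted p = 0.0369). Prr33 overlaps Lsp1, and Mcph1, which differed by -0.49 ± 0.16 at day 2 (adjusted p = 0.0941), overlaps Angpt2. The overlap is one of whole gene spans, exons were not compared, and no source used here says that strand was counted. Whether reads of one such gene were counted for the other was not tested. Phlda2, beside Slc22a18 in the imprinted cluster, had a mean level of 0.80 and differed by 0.76 ± 0.21 at day 2 (adjusted p = 0.0531).

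Before the H3K4me3 values, the libraries themselves have to be described, because they split in a way that runs across their labels. The libraries labelled shLuc 4 hours, shKdm5ABC day 0 and shKdm5ABC day 2 held 78.8% to 83.2% of their normalized tags in the listed peaks, and those labelled shLuc day 0, shLuc day 2 and shKdm5ABC 4 hours 65.6% to 68.1%. Across 9440 genes, the RNA and H3K4me3 differences between knockdown and control had Pearson's r of 0.329 at day 0, -0.172 at 4 hours and 0.303 at day 2. The RNA change in shLuc from day 0 to 4 hours had r of -0.049 with the H3K4me3 change between the libraries labelled the same way, and of 0.707 with that between the libraries labelled shLuc day 2 and shLuc day 0. The RNA change in shLuc from day 0 to day 2 had r of 0.458 with the H3K4me3 change between the libraries labelled the same way. With the H3K4me3 difference between the libraries labelled shKdm5ABC 4 hours and shLuc day 0 it had r of 0.799. Genes are not independent replicates, and these values describe the libraries only. The labels were kept, and every direction below is one between libraries as labelled.

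**Figure D4:**
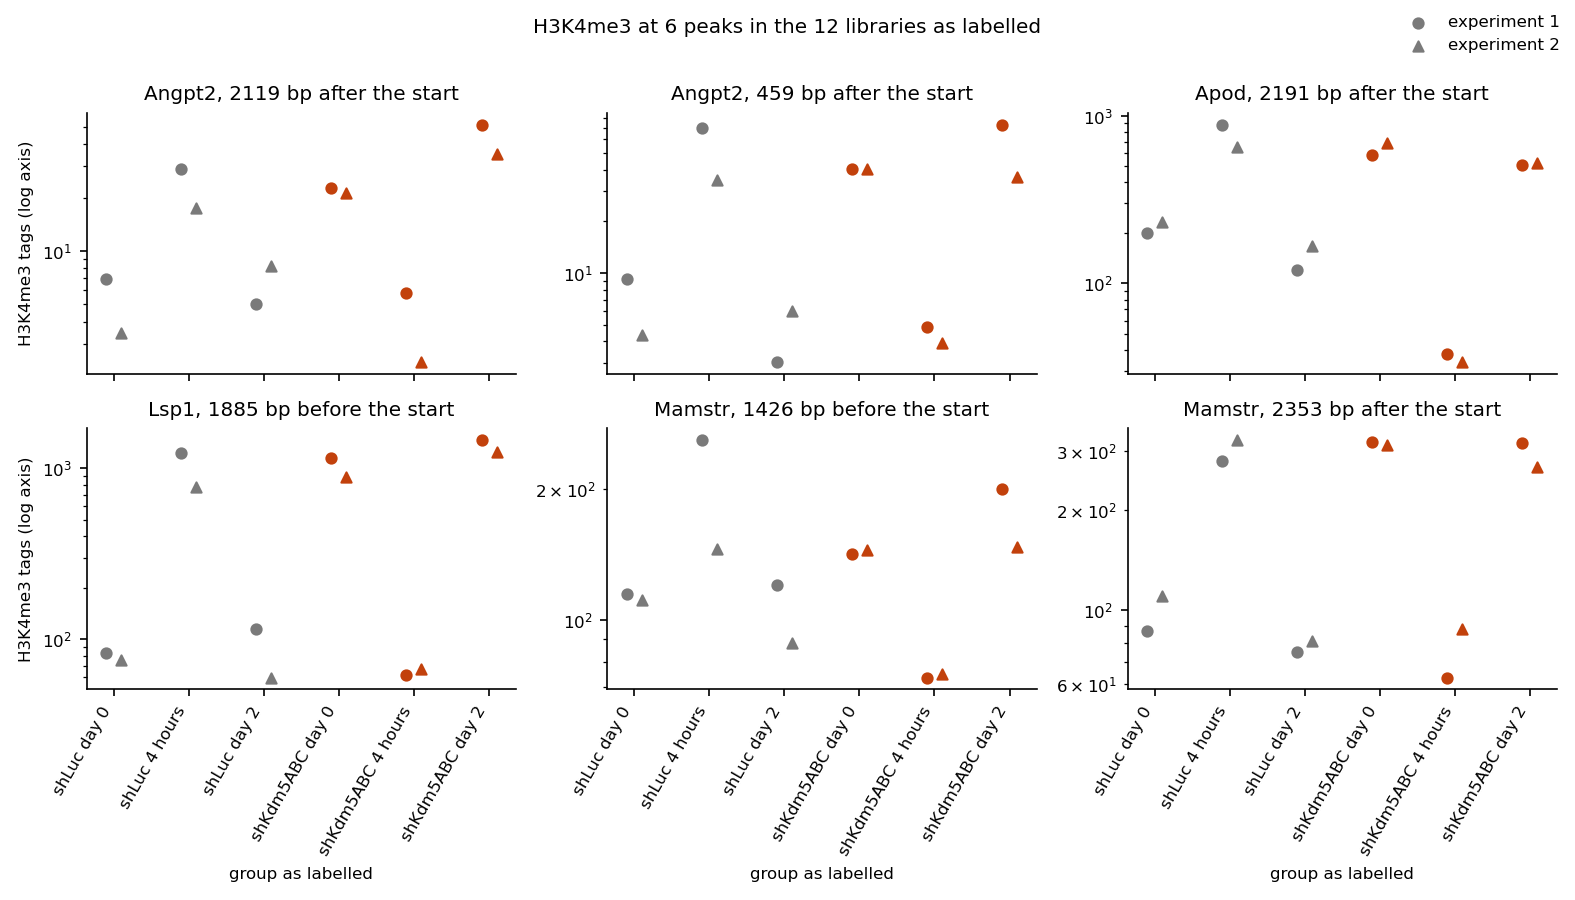
H3K4me3 tags (vertical log axes, a separate scale for each panel) at the 6 peaks of Angpt2, Apod, Lsp1 and Mamstr in the 12 libraries, by labelled group (horizontal axis). Circles and triangles are experiments 1 and 2, grey for shLuc and orange for shKdm5ABC; in every panel the groups labelled shLuc 4 hours, shKdm5ABC day 0 and shKdm5ABC day 2 are the high ones.

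Of the 10 genes 4 had an H3K4me3 peak within 3000 bases of a start, where 69.8% of 13532 genes with RNA values did. That share was not matched for RNA level, which was low for most of the 10. Cntfr, P2rx3, Slc22a18, Plekha6, Ubd and Adh1 had none in the table. Peak positions are those of build mm9, and their distances are to the nearest listed start of the gene.

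The peak of Lsp1 (chr7:149656495-149665572, its centre 1885 bases before a start) was 9077 bases wide, broader than 99.7% of all peaks. It held 83.3 and 75.6 tags in the libraries labelled shLuc day 0, 1222 and 777 in shLuc 4 hours and 114 and 59.8 in shLuc day 2. In those labelled shKdm5ABC it held 1144 and 890.4 at day 0, 61.9 and 66.9 at 4 hours and 1453 and 1242 at day 2. The libraries lay at 2 levels, one of 59.8 to 114 tags and one of 777 to 1453, with none between. As labelled, the knockdown exceeded the control at day 0 by 3.65 ± 0.30 on the log2 scale (12.6-fold, limma adjusted p = 1.62e-04, rank 3 of all peaks) and at day 2 by 4.01 ± 0.30 (16.1-fold, adjusted p = 1.07e-04). At 4 hours it was below it by -3.90 ± 0.30 (14.9-fold lower, adjusted p = 1.62e-05).

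The peak of Apod (chr16:31309985-31314997, its centre 2191 bases after the start) was 5012 bases wide, at the 94.4th percentile of width. Libraries labelled shLuc held 199 and 234 tags at day 0, 882 and 650.3 at 4 hours and 120.2 and 166 at day 2. Those labelled shKdm5ABC held 580.2 and 692, 37.7 and 33.8, and 511 and 521 in turn. The differences as labelled were 1.55 ± 0.21 at day 0 (adjusted p = 9.83e-04), -4.37 ± 0.21 at 4 hours (20.6-fold lower, adjusted p = 3.34e-06) and 1.86 ± 0.21 at day 2 (adjusted p = 6.23e-04). The pair labelled shKdm5ABC 4 hours was below every other library at this peak.

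Angpt2 had 2 weak peaks, the stronger of them (chr8:18740801-18741405, 459 bases after the start) at the 1.65th percentile of mean tags. It held 9.26 and 4.34, 70.2 and 34.9, and 3.03 and 5.98 tags in the libraries labelled shLuc, and 40.4 and 40.5, 4.84 and 3.93, and 72.8 and 36.2 in those labelled shKdm5ABC. Its differences were 2.49 ± 0.52 (adjusted p = 0.00628), -3.24 ± 0.52 (adjusted p = 8.13e-04) and 3.30 ± 0.52 (adjusted p = 0.00237). The second Angpt2 peak (chr8:18739193-18739693, 2119 bases after the start) held 2.36 to 51.4 tags and differed by 1.95 ± 0.50 (adjusted p = 0.0151), -2.30 ± 0.50 (adjusted p = 0.00461) and 2.54 ± 0.50 (adjusted p = 0.00616). Its day 0 call was lost in edgeR (adjusted p = 0.0629) and without shLuc experiment 2 or either shKdm5ABC library of that time (adjusted p = 0.0901, 0.0774 and 0.0569), and its day 2 call without shLuc experiment 1 (adjusted p = 0.0524).

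Mamstr had a peak on either side of its start. The one after it (chr7:52896105-52899295, 2353 bases) held 86.8 and 110.3, 279.6 and 322, and 74.8 and 80.7 tags in libraries labelled shLuc, and 319 and 311, 62.9 and 88.1, and 315 and 268 in those labelled shKdm5ABC. Its differences were 1.68 ± 0.21 (adjusted p = 7.91e-04), -2.0 ± 0.21 (adjusted p = 8.52e-05) and 1.89 ± 0.21 (adjusted p = 6.43e-04). The one before it (chr7:52892922-52894921, 1426 bases) varied less, from 73.5 to 258 tags. It was lower in the knockdown as labelled at 4 hours (-1.38 ± 0.29, adjusted p = 0.00374), and did not pass at day 0 (0.34 ± 0.29, adjusted p = 0.404) or day 2 (0.73 ± 0.29, adjusted p = 0.0961, or 0.00931 with the experiment as a block, which makes 6 of 6 peaks called at that time, and 52.1% of all).

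Thus 5 of the 6 peaks were called higher in the knockdown as labelled at day 0, 6 of 6 lower at 4 hours and 5 of 6 higher at day 2, where 32.7% of all peaks were higher, 34.3% lower and 23.8% higher. The libraries as a whole moved too. The median over all peaks was 0.288 at day 0, -0.233 at 4 hours and 0.246 at day 2, and under TMM scaling in edgeR it was -0.008, 0.047 and -0.025. With that scaling 866 peaks were called higher and 199 lower at day 0, 1431 and 2344 at 4 hours and 691 and 119 at day 2, where the limma fit called 3499 and 21, 173 and 3666, and 2545 and 26. The directions at the 6 peaks held under it: Lsp1 had 3.38, -3.67 and 3.70, Apod 1.26, -4.14 and 1.57, and 4, 6 and 5 of the 6 peaks were called (8.09% of all higher, 21.9% lower and 6.46% higher). Fitted on the 4 libraries of one time alone, 5 of the 6 peaks were called higher at day 0 (28.4% of all), 6 lower at 4 hours (28.0%) and 5 higher at day 2 (16.3%).

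The turn of direction between day 0 and 4 hours as labelled, tested as an interaction added after the columns were seen, was called at all 6 peaks, from -1.71 ± 0.40 (Mamstr, before the start, adjusted p = 0.00580) to -7.55 ± 0.43 (Lsp1, adjusted p = 5.33e-06, the lowest of all 10702 peaks); 46.6% of all peaks were called in that direction (32 higher and 4990 lower in limma, 1697 and 2570 in edgeR). Between libraries labelled shLuc, 4 hours was called above day 0 at 5 of the 6 peaks (27.8% of all peaks, 2980 higher and 1 lower), by 3.60 ± 0.30 at Lsp1 (adjusted p = 4.61e-04). The Mamstr peak before the start was higher by 0.78 ± 0.29 and did not pass (limma adjusted p = 0.0686, or 0.00547 with the experiment number as a block). Over all peaks the number higher was 428 in edgeR (23 lower), 274 when only those 2 groups were fitted, 847 to 2069 without 1 library and 6331 with the experiment number as a block. The second Angpt2 peak lost that call in edgeR (adjusted p = 0.0877), without shLuc day 0 experiment 2 (0.0954) or without shLuc 4 hours experiment 1 (0.0889), and both Angpt2 peaks lost it when only those 2 groups were fitted (0.0746 and 0.0555). Between those labelled shKdm5ABC, 4 hours was below day 0 at 6 of 6 (34.9%), by -4.11 ± 0.21 at Apod (adjusted p = 5.96e-06), and day 2 exceeded 4 hours at 6 of 6 (29.6%). Over all peaks limma called 120 higher and 3731 lower in the first of these and 3167 and 6 in the second, and edgeR 1367 and 2375, and 1649 and 304. The Mamstr peak before the start lost the first call in edgeR (adjusted p = 0.0941) and without any one of the 4 libraries (0.0829 to 0.102), and the second without experiment 1 of 4 hours or of day 2 (0.0568 and 0.0804). Averaged over both labelled virus groups, day 2 against day 0 was called at 0 of the 6 peaks in limma and in edgeR, and at 1 with an unadjusted p under 0.05 (Apod, -0.45 ± 0.15, adjusted p = 0.180, or 0.0185 with the block, under which 13.0% of all peaks were lower). Of all 10702 peaks, 1530 had an unadjusted p under 0.05 in limma, and 0.813% were called higher and 1.33% lower.

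The 6 libraries with the larger share of tags in peaks were all above the other 6 at 6 of the 6 peaks, and at 26.0% of all 10702. Whether the column labels, the amount of tags in peaks or the knockdown set these levels cannot be told apart here.

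KDM5A was mapped without knockdown, and the question here was how much of it lay at these genes. Within 1000 bases of a start 5 of the 10 had a KDM5A peak, against 69.8% of 13532 genes, and 1 of the 10 had one with a mean of at least 20 tags, against 63.6%. These shares, and those for KDM5C below, were not matched for RNA level either. Over all 49 peaks of the genes the median was 9.25 tags, near the 7.18 of all KDM5A peaks, whereas the 11573 peaks within 1000 bases of a start had a median of 162. The 6 peaks of the 10 genes at that distance had a median of 11.4. Slc22a18 had no KDM5A, KDM5C or H3K4me3 peak in the tables.

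The strongest KDM5A peak near a start was that of Mamstr (chr7:52893583-52895116, its centre 998 bases before the start). It held 79.0 and 29.5 tags at day 0, 57.0 and 46.5 at 4 hours and 29.5 and 45.6 at day 2, against 3.60 in the input, and lay at the 23.8th percentile of all peaks within 1000 bases of a start. It overlapped the H3K4me3 peak before the Mamstr start. The Lsp1 peak 504 bases before a start held 6.81 to 24.3 tags with 0.900 in the input, and the Apod peak 626 bases after it had a mean of 13.5. Both lay inside the H3K4me3 peaks of their genes. Cntfr had a peak 550 bases before a start with a mean of 9.19 tags and Plekha6 one 566 bases before a start with 6.41.

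The highest KDM5A signal of the set lay far from any start. A peak 40589 bases before Apod (chr16:31354881-31355661) held 76.1 and 59.7 tags at day 0, 93.0 and 62.0 at 4 hours and 84.0 and 61.1 at day 2, with 9.0 in the input, and its 6 libraries overlapped across times. A peak 34718 bases before Angpt2 held 39.0 and 15.9, 60.3 and 43.9, and 9.08 and 9.28 tags, high at 4 hours and low at day 2, but its change from day 0 to day 2 of -1.35 ± 0.61 did not pass (adjusted p = 0.680). P2rx3 had 3 peaks after its start, 2588, 13541 and 23635 bases away, with means of 17.7, 27.3 and 8.72 tags.

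**Figure D5:**
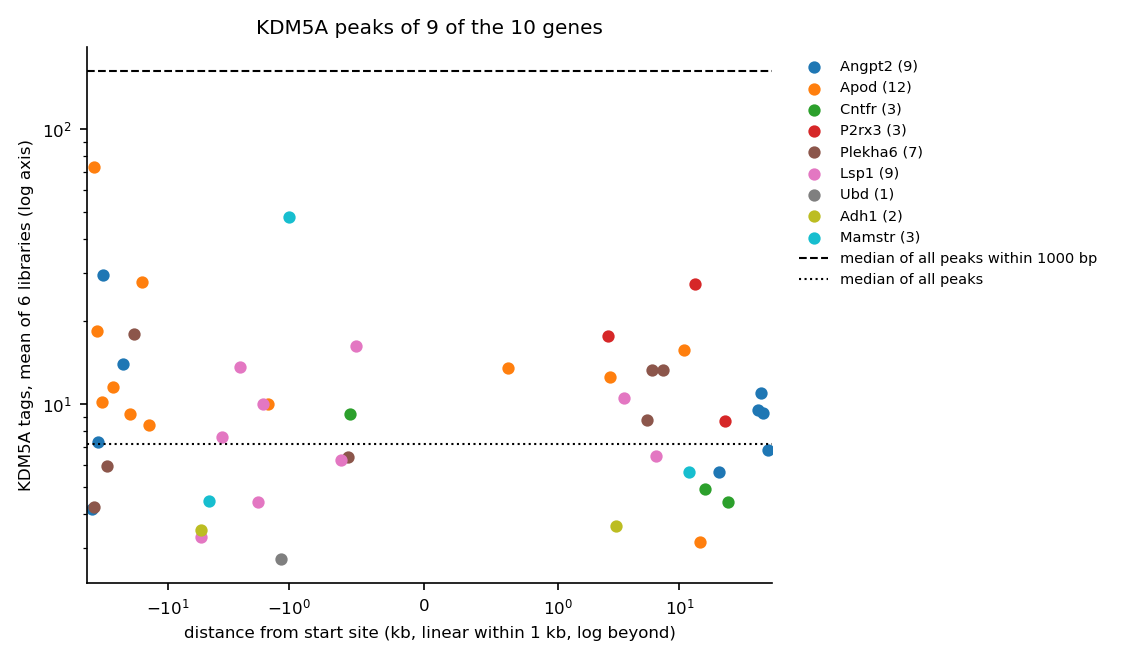
Mean KDM5A tags over 6 libraries (vertical log axis) against the distance of the peak from the start (horizontal axis, kb, negative before the start, linear within 1 kb and logarithmic beyond) for the 49 peaks of 9 genes, one colour per gene with its number of peaks. The dashed line is the median of all peaks within 1000 bases of a start, 162 tags, and every point lies below it; the dotted line is the median of all peaks, 7.18.

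None of the 49 KDM5A peaks was called between day 0 and 4 hours or day 2 in limma or in edgeR. In limma 3 and 4 of them had an unadjusted p under 0.05, as did 4577 and 5547 of all 87525 peaks, so nothing is read from these counts. Over all 87525 peaks 0.0606% were called higher and 0% lower at 4 hours, and 0.136% and 0.0366% at day 2. Library sizes recovered from the tags ran from 3.87 to 17.6 M reads, and at the few tags of most of these peaks small changes were not detectable at this depth. The Apod peak 626 bases after the start held 0.0 and 5.41 tags at day 2 and was called lower there only without experiment 2 of day 2 (-3.82, adjusted p = 0.0407).

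KDM5C at day 2 had no peak within 1000 bases of a start of the 10 genes (14.1% of 13532 genes had one), and within 5000 bases 3 of the 10 did (21.5%): Mamstr, P2rx3 and Adh1. The Mamstr peak (chr7:52893715-52894393, 1293 bases before the start) held 57.7 and 35.7 tags with 2.70 in the input, at the 96.5th percentile of all KDM5C peaks, and overlapped the KDM5A and H3K4me3 peaks there. The P2rx3 peak 2602 bases after the start held 6.79 and 14.8 tags, and the Adh1 peak 3865 bases before it 23.8 and 2.46, so that the 2 experiments differed by several fold. The other 5 KDM5C peaks, of Angpt2, Apod and P2rx3, lay 5554 bases or more from a start, with means of 8.93 to 22.5 tags.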

How the data were processed

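RNA was measured in 12 libraries, H3K4me3 in 12, KDM5A in 6 and KDM5C in 2, with 1 input; a second input, labelled Input virus, was not analysed here. The authors deposited RNA as log2 tags per kilobase for each RefSeq transcript, per the file headers, and their processing notes name Bowtie2, Subread, DESeq2 and build mm9. How values were normalized and whether strand was used is not given in the sources used here. Whole reads could not be recovered from them, so the RNA depth is unknown. For ChIP the authors deposited a tag signal per peak (HOMER and STAR per the submitters' processing notes). Its steps gave whole reads for 100% of values (tolerance 0.1 reads) if each library was scaled to 10 M tags, which puts libraries at 8.37 to 13.6 M reads for H3K4me3, 3.87 to 17.6 M for KDM5A and 2.95 and 8.13 M for KDM5C.

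The members and the gene lists were chosen with earlier results of these data known. Named beside the 10 genes are the Kdm5 genes, from each list up to 2 called genes with the smallest p or else the gene with the highest level, the most similar transcript of each gene and its neighbours with RNA values. RefSeq names matched 17253 of 17515 transcripts, the peak tables named 144 more and 118 kept their identifiers. Transcripts with log2 values of at least 1 in at least 2 libraries (13534) were fitted in limma 3.58.1 (R 4.3.3) with 6 groups sharing 1 spread, trend on, two-sided, with Benjamini-Hochberg adjustment over all features. Peaks were fitted likewise as log2(tags + 1), a scale that understates changes of low peaks. edgeR 4.0.16 with TMM on the recovered reads was an alternative. It called 1065, 3775 and 810 H3K4me3 peaks between knockdown and control at the 3 times, and 75 and 1069 KDM5A peaks at 4 hours and day 2. With 2 libraries against 2 the smallest exact permutation p is 0.333, so single values were not tested that way. The scripts were tested on simulated data. H3K4me3 contrasts between times within a virus group, and the change of the knockdown difference from day 0 to 4 hours, were added after the data were seen.

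Experiments 1 and 2 of different groups deviated together, with correlations of 0.381 to 0.657 over 15 group pairs in RNA and 0.504 to 0.790 in H3K4me3, so blocked values or counts are given where they change a call reported above. In KDM5A the 3 pairs gave 0.047 to 0.333.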

Additional observations from a re-analysis of the deposited data

Results flagged for a closer look

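The RNA difference between knockdown and control moved from day 0 to day 2 at 2 genes by the interaction test of the limma fit: Apod by 2.61 ± 0.39 (SE) and P2rx3 by 2.42 ± 0.35. For Apod the groups were close at day 0 and apart at day 2, and for P2rx3 they were apart at day 0 and close at day 2. These RNA values belong to the contrast that chose the genes and are a description, with no p given.

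The H3K4me3 difference between libraries labelled shKdm5ABC and shLuc changed between day 0 and 4 hours at all 6 peaks of the genes. Of all 10702 peaks, 46.6% were called in the same direction. The change was -7.55 ± 0.43 at Lsp1 (limma adjusted p = 5.33e-06), -5.92 ± 0.30 at Apod (adjusted p = 4.25e-06), and -5.72 ± 0.73 (adjusted p = 1.55e-04) and -4.24 ± 0.70 (adjusted p = 7.24e-04) at the Angpt2 peaks 459 and 2119 bases after the start. At the Mamstr peaks after and before the start it was -3.67 ± 0.30 (adjusted p = 1.97e-05) and -1.71 ± 0.40 (adjusted p = 0.00580). The libraries labelled shLuc 4 hours and shKdm5ABC 4 hours differ in the share of tags in peaks in the opposite sense to the libraries of the other times, and the part of that in these values was not tested. Over genes, the RNA change in shLuc from day 0 to 4 hours had Pearson's r of -0.049 with the H3K4me3 change labelled the same way. With the H3K4me3 change between libraries labelled shLuc day 2 and shLuc day 0 it had r of 0.707. The part of the labels in these values was not tested either.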

How the results depend on the processing

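At the 10 genes and their peaks, no direction called in the limma fits turned under any alternative tried: another set of groups in the fit, no floor on low values, values under 0 set to 0, centring of each library, a pseudocount of 5, peaks of at least 20 tags, edgeR with TMM, the replicate block, or 1 library left out. The counts of calls over all features moved more. With the replicate block, RNA calls between knockdown and control went from 204, 195 and 1218 at day 0, 4 hours and day 2 to 1277, 1310 and 3809, and calls of the change from day 0 to day 2 from 42 to 1038. H3K4me3 calls with the block went from 3520, 3839 and 2571 to 6470, 6231 and 5683, and those over time from 229 to 2252. KDM5A calls over time went from 53 and 151 to 720 and 840 with the block, although its experiment numbers pair the samples less clearly. With only the compared groups fitted, the RNA counts were 11, 0 and 25 (1342 at an unadjusted p under 0.05 for the count of 0 in limma), the change 9, and H3K4me3 over time 133. Without a floor on low values the RNA change was called for 0 of 17515 transcripts in limma, Apod and P2rx3 among those not called, and 1935 had an unadjusted p under 0.05. edgeR with TMM called 1065 and 810 H3K4me3 peaks at day 0 and day 2, and 1069 KDM5A peaks at day 2, 428 higher and 641 lower where limma called 119 and 32. KDM5A calls were 11 at 4 hours with a pseudocount of 5, and 118 and 81 with peaks of at least 20 tags. Leaving out 1 library gave 13 to 72, 11 to 36 and 165 to 970 RNA calls at the 3 times, 0 to 144 for the change, 7162 to 7496 and 7828 to 8073 over time at 4 hours and day 2, 1463 to 2702, 2718 to 3404 and 1076 to 1613 for H3K4me3, 18 to 111 for H3K4me3 over time, and 0 to 208 and 0 to 369 for KDM5A. Over all KDM5A peaks the split at 4 hours went from 53 higher and 0 lower to 6 and 48 without experiment 1 of 4 hours. Within 5000 bases of a start 8 of the 10 genes had a KDM5A peak, against 5 within 1000. For the counts that moved with the block, the scaling or the pseudocount, the cause was not tested. With 2 libraries a group the spread is known poorly, and KDM5A peaks of a few tags limit what could be seen.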
